A study of Homo sapiens with 4 samples.

Results

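The 10 genes SRSF1, SRSF2, SRSF3, SRSF4, SRSF5, SRSF6, SRSF7, SRSF10, SRSF11 and TRA2B encode splicing factors with RS domains, and they were chosen by their gene symbols, out of 60605 genes, to be followed transcript by transcript. They hold 121 of the 236853 annotated transcripts for which a level was given in every library. RNA of OVCAR3, an established cell line from the ascites of an ovarian adenocarcinoma, was sequenced in 2 libraries of DMSO treated (vehicle) cells and 2 libraries of etoposide treated cells (1.7 µM for 24 h). Cells of both groups had first been held in mitosis by nocodazole (100 ng/mL, 16 h) and released into fresh medium for 3 h, so that no group is without nocodazole. Etoposide is a topoisomerase II poison that leaves DNA double-strand breaks. The libraries were labelled as biological replicates of 1 cell line, and the mapped bases behind them equal 47700000 to 66500000 read pairs. All 10 markers of serous ovarian carcinoma, PAX8 and WT1 among them, were at an FPKM (fragments per kilobase, scaled by library depth) of at least 1 in every library. Of the markers of other cells, 2 of 6 of fibroblasts, 1 of 4 of endothelium and 0 of 5 of leukocytes reached 1 in all libraries.

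SR proteins are RNA-binding proteins with an RNA recognition motif and a domain rich in arginine and serine, the RS domain. They bind enhancer sequences in exons and help U1 and U2 snRNP to recognise the splice sites beside them. Many of their genes control their own level at splicing: when the protein is abundant, an extra exon with an early stop codon (a poison exon) or an intron is kept, and the mRNA is sent to nonsense-mediated decay (NMD) or stays in the nucleus. The level of a gene and the make-up of its transcripts are therefore separate measures. Transcripts are named here by the number the annotation gives them, as in SRSF1-201. Their class, which is protein coding, nonsense-mediated decay (NMD), retained intron or other, is that of the reference annotation. The main coding transcript of a gene is its protein-coding transcript with the highest mean FPKM over the 4 libraries.

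In SRSF1, SRSF3, SRSF6, SRSF7 and TRA2B the NMD transcript with the highest FPKM meets its stop codon in a stretch that the main coding transcript splices out. The same holds for SRSF4-205, SRSF5-211 and SRSF11-212, which held at most 3.06% of their genes' FPKM and whose stretches are not printed. The stretches are printed from the GRCh38 genome on the gene's strand, 5′ to 3′, up to the stop codon, which stands in capitals. Poison exons start at their first base, and the 2 stretches that read on past a splice site of the main coding transcript start 15 bases before that site. They are shown because the reading frame of these transcripts ends in them.
SRSF1-206, exon 1 extended into intron 1, chr17:58006940-58006958, minus strand: gttcgaggacccgcggTGA
SRSF3-203, poison exon between exons 3 and 4, chr6:36599821-36599854, plus strand: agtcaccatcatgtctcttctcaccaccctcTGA
SRSF6-202, poison exon between exons 2 and 3, chr20:43459153-43459304, plus strand: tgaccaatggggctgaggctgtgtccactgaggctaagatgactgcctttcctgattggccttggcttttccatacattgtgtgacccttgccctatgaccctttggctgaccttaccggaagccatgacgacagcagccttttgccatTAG
SRSF7-208, intron 3 retained, chr2:38749516-38749543, minus strand: gcgaagaagaagcaggtatttatttTAA
TRA2B-205, poison exon between exons 1 and 2, chr3:185931772-185931852, minus strand: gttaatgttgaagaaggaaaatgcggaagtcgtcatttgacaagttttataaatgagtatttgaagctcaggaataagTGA
The reading frame ended after 65 codons in SRSF1-206 against 248 in SRSF1-201, and after 124 against 164 in SRSF3, 135 against 344 in SRSF6, 132 against 238 in SRSF7 and 38 against 288 in TRA2B. The whole poison exons are 456 bases long in SRSF3 and 268 in SRSF6, and that of TRA2B, of which the part up to the stop is printed, is 276.

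At the level of whole genes, the 10 SR genes differed little between the groups, and SRSF2 stood far above the others. Gene FPKM is the sum over all transcripts of a gene. SRSF2, which binds exonic enhancers and is needed for the definition of many exons, was at 189 and 165 FPKM in DMSO 1 and 2 and at 165 and 166 in etoposide 1 and 2. SRSF1, the founding member of the family, was at 67.7 and 78.2 FPKM in the DMSO libraries against 71.4 and 70.2 in the etoposide libraries. SRSF5 (67.8 to 73.8), SRSF3 (65.5 to 68.4), SRSF6 (56.9 to 64.9), SRSF7 (57.0 to 63.9) and TRA2B (52.3 to 55.3) followed in order of their means. The ranges of SRSF1, SRSF5 and SRSF3 overlap, as do those of SRSF6 and SRSF7, so their order is not fixed, while TRA2B was below all of them in every library. SRSF11 was between 43.5 and 48.8 FPKM, SRSF10 between 18.8 and 22.8 and SRSF4 between 12.5 and 17.8. The order of these last 3 genes was the same in every library. The libraries of a gene differed by at most 1.22-fold, with the exception of SRSF4 (1.43-fold), in which the spread lay within the groups.

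In 2 of the 10 genes both etoposide libraries lay above both DMSO libraries, where 28.9% of the 22185 genes tested did so and 47.9% had groups that did not overlap in either direction. SRSF11, an RS domain protein of the spliceosome, was at 43.5 and 44.2 FPKM in the DMSO libraries against 48.4 and 48.8 in the etoposide libraries, a log2 fold change of 0.15 ± 0.07 (SE) with a limma adjusted p of 0.445. SRSF6, a regulator of alternative exons, was at 56.9 and 62.1 FPKM against 64.2 and 64.9. Its log2 fold change of 0.12 ± 0.08 (SE, limma adjusted p = 0.532) became −0.01 after a correction for transcript length and GC content. The other 8 log2 fold changes were between −0.09 (SRSF2) and 0.12 (SRSF10), with overlapping libraries. None of the 10 genes passed an adjusted p of 0.05 or an unadjusted p of 0.05. Of all genes, 0 (0%) passed the adjusted threshold in limma in either direction, and 1566 (7.06%) with a higher and 1077 (4.85%) with a lower level passed an unadjusted p of 0.05. On the TPM scale the median change of all genes was 0.10 in place of 0.04 on the FPKM scale, and the log2 fold changes of SRSF1, SRSF3 and TRA2B were then just above 0 instead of just below.

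**Figure D1:**
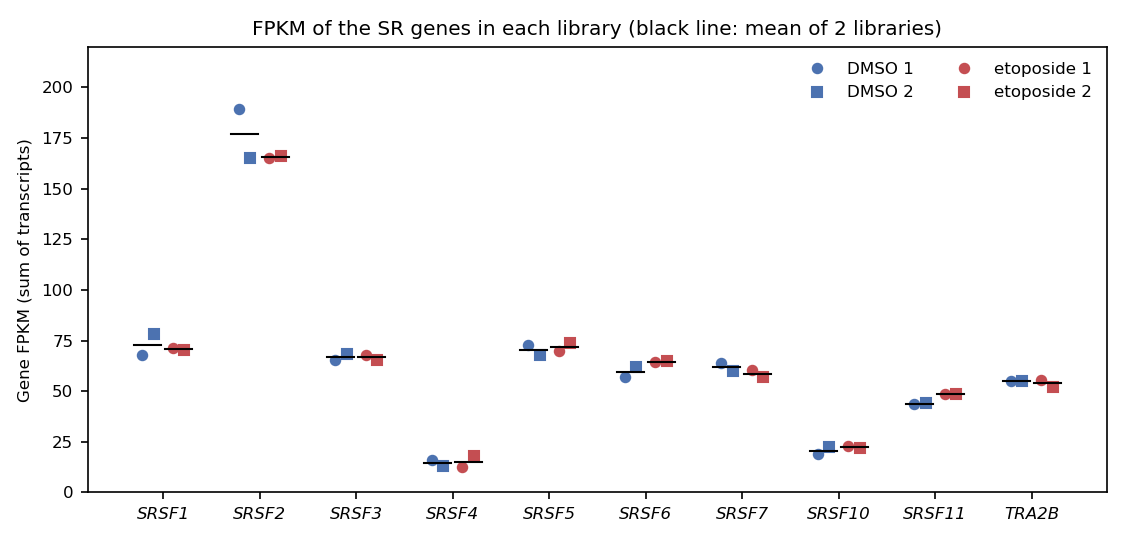
FPKM of each of the 10 genes (y axis, linear) in DMSO 1 and 2 (blue) and etoposide 1 and 2 (red), with the mean of the 2 libraries of a group as a black line. SRSF2 was between 165 and 189 and every other gene at or below 78.2, and the groups lie apart in SRSF6 and SRSF11 only.

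In all 10 genes a part of the FPKM lay in transcripts not classed as protein coding. The larger part did so in SRSF7 in every library, in TRA2B in 3 of the 4 libraries and in SRSF2 in both DMSO libraries. In SRSF11 it did so in etoposide 2 only, where coding transcripts held 49.9%. Coding transcripts made up between 26.7% (SRSF7) and 90.7% (SRSF1) of the gene FPKM as a mean over the libraries. In all 10 genes this was less than the median of 94.8% over the 11470 genes with an FPKM of at least 1 and an annotated coding transcript. Those genes were not required to have an annotated NMD or retained-intron transcript, and the part this plays was not tested. The share of NMD transcripts was above the median of all genes with such transcripts (2.42%, over 5367 genes) in 7 of the 10, and the share of retained-intron transcripts was above the median (3.89%, over 6980 genes) also in 7. SRSF7 had the highest NMD share, 63.2% to 68.8% in the 4 libraries. TRA2B had the highest share of retained-intron transcripts, 45.4% to 56.8%. A share of NMD transcripts is what was left at the time of harvest, after decay.

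**Figure D2:**
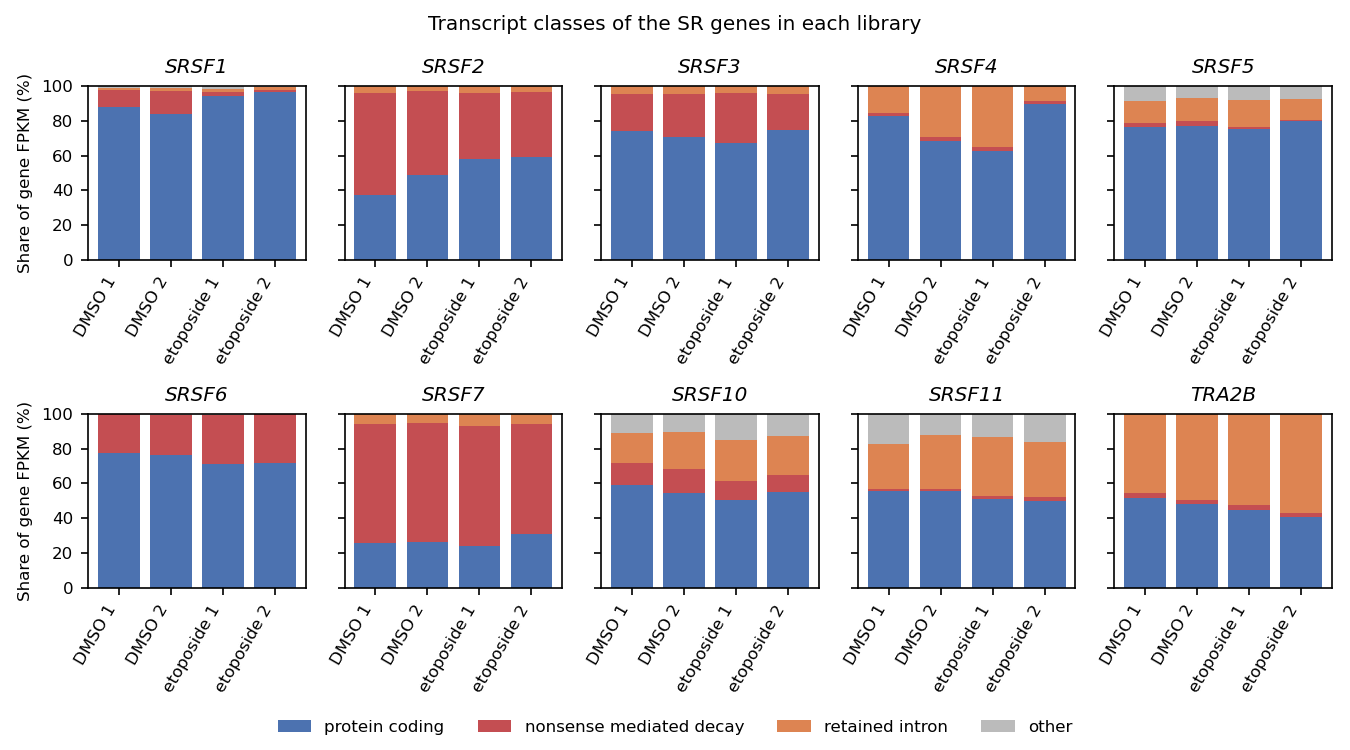
Share of the gene FPKM (y axis, percent) in protein-coding (blue), NMD (red), retained-intron (orange) and other (grey) transcripts, 1 stacked bar per library and 1 panel per gene. The red part is smaller in both etoposide libraries in SRSF1 (1.15% and 2.19%) and SRSF2 (37.4% and 37.9%) than in the DMSO libraries, while the bars of SRSF4 differ most between libraries of the same group.

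Of the 10 genes, SRSF1 had the largest log2 fold change in the ratio of NMD to coding transcripts. SRSF1-206, in which exon 1 runs on into the first intron and meets the TGA shown above, held 9.29% and 11.6% of the gene FPKM in DMSO 1 and 2 and 1.25% and 0.560% in etoposide 1 and 2. In FPKM it was at 6.29 and 9.10 against 0.893 and 0.393, which corresponds to about 594, 887, 62.4 and 33.7 read pairs by its depth and length. Both etoposide libraries were thus below both DMSO libraries. In bulk RNA, fewer cells with a transcript and less of it per cell cannot be told apart. Relative to the rest of its gene, SRSF1-206 had a log2 fold change of −3.56 ± 0.50 (SE), with a limma adjusted p of 0.430 over the 58935 transcripts tested in this way.

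SRSF1-208 is a coding transcript of SRSF1 in which the last exon of SRSF1-201 is spliced once more, which changes the end of the coding sequence (759 coding bases against 744). It held 6.76% and 5.0% of the gene FPKM in the DMSO libraries against 13.2% and 14.7% in the etoposide libraries, so that both etoposide libraries were higher. Its log2 fold change relative to the rest of the gene was 1.37 ± 0.39 (SE, limma adjusted p = 0.852). The main coding transcript SRSF1-201 held 80.9%, 76.7%, 79.1% and 79.5% in DMSO 1, DMSO 2, etoposide 1 and etoposide 2, without a difference beyond the spread between libraries. The single retained-intron transcript, SRSF1-202, stayed between 1.35% and 1.82%, and SRSF1-203, which has no defined coding sequence, between 0.647% and 1.97%. Over its 3 NMD transcripts, SRSF1 had 11.4% ± 2.67 (SD, n = 2) of its FPKM in this class in DMSO treated against 1.67% ± 0.735 in etoposide treated cells. The log2 fold change of the ratio of NMD to coding transcripts was −2.88 ± 0.54 (SE, limma adjusted p = 0.670). A gene on the same strand, ENSG00000266086, shares 1890 exon bases with SRSF1 and was at 5.52, 1.25, 4.82 and 3.89 FPKM in the same order of libraries. On the opposite strand ENSG00000279069 shares 440 exon bases with SRSF1 and was between 2.23 and 3.00 FPKM. Without a strand option in the quantification, reads of SRSF1 and of this gene over these bases cannot be told apart. The part of either gene in the shares was not tested.

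**Figure D3:**
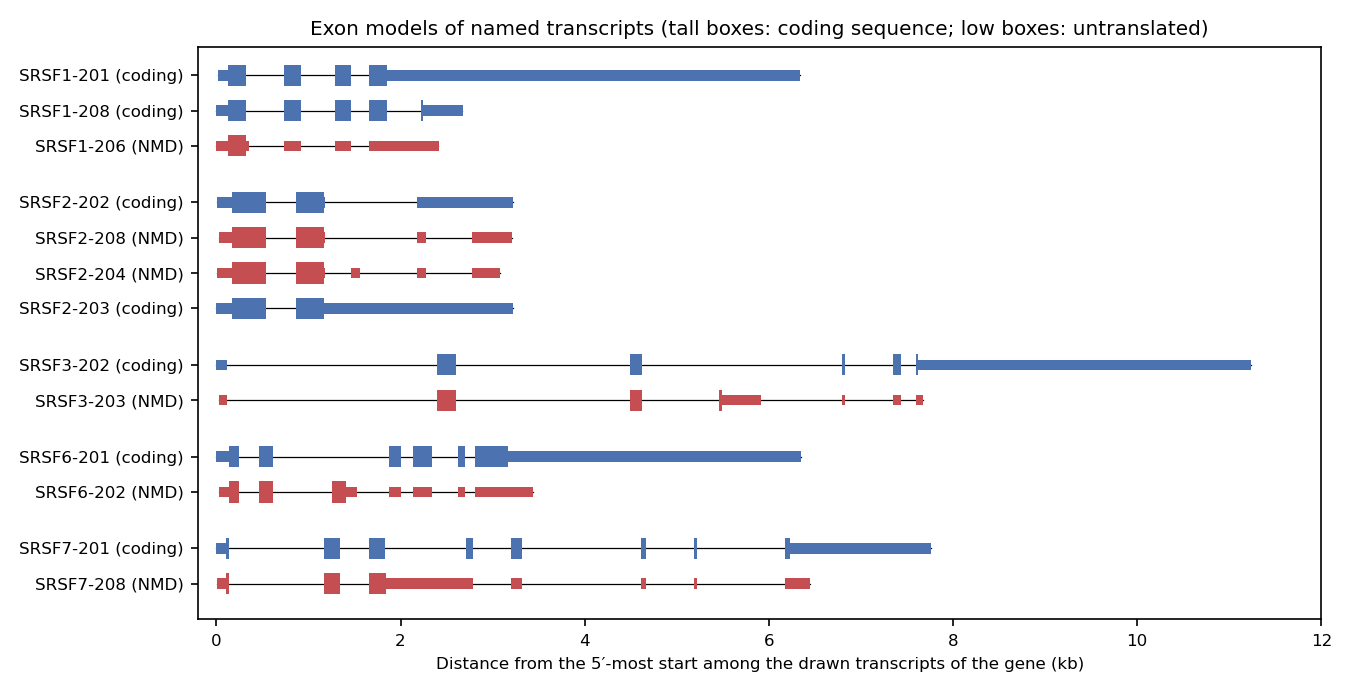
Exon models of 13 transcripts of SRSF1, SRSF2, SRSF3, SRSF6 and SRSF7 along the distance from the gene's start (x axis, kb), with protein-coding transcripts in blue, NMD transcripts in red, coding sequence as tall boxes, untranslated exons as low boxes and introns as lines. SRSF1-206 stops in its first exon, whereas SRSF2-208 and SRSF2-204 keep the whole coding sequence and differ from SRSF2-202 behind the stop codon.

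In SRSF2 the NMD transcripts keep the complete coding sequence of 663 bases and are marked as NMD targets by exons behind the stop. SRSF2-208, with 1 more intron removed behind the stop codon than in the main coding transcript, was the most abundant transcript of the gene in DMSO 1, at 47.9%, and held 37.8% in DMSO 2. It held 26.0% and 23.1% in etoposide 1 and 2. The main coding transcript SRSF2-202 had the opposite order, with 27.2% and 38.9% in the DMSO libraries against 50.4% and 48.3% in the etoposide libraries. The groups did not overlap for either transcript, although DMSO 1 and DMSO 2 themselves were 10.1 and 11.7 percentage points apart. Relative to the rest of the gene, the log2 fold change was −1.20 ± 0.41 (SE, limma adjusted p = 0.946) for SRSF2-208 and 1.00 ± 0.44 (SE, limma adjusted p = 0.946) for SRSF2-202, which was 0.61 without DMSO 1.

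SRSF2-204, which carries a further cassette exon behind the stop, held 10.7% and 10.4% in the DMSO libraries against 11.8% and 14.2% in the etoposide libraries, so it did not follow SRSF2-208. SRSF2-203, a coding transcript that keeps the last intron, was between 6.27% and 7.46%, and SRSF2-206, the highest retained-intron transcript, between 1.93% and 2.91%. The NMD class as a whole was at 53.4% ± 7.29 (SD, n = 2) of the FPKM of SRSF2 in DMSO treated against 37.6% ± 0.337 in etoposide treated cells. Its ratio to the coding transcripts had a log2 fold change of −0.95 ± 0.46 (SE, limma adjusted p = 0.950). SRSF2 shares 1065 exon bases with MFSD11 on the opposite strand, which was at 14.1 to 14.3 FPKM in the 4 libraries. Since no strand option was given when the transcripts were quantified, reads of both genes over these bases cannot be told apart.

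SRSF6 differed in the opposite direction. Its poison exon transcript SRSF6-202 held 22.1% and 23.5% of the gene FPKM in DMSO 1 and 2 and 28.5% and 28.1% in etoposide 1 and 2. The main coding transcript SRSF6-201 held 77.1% and 75.7% against 70.8% and 70.6%. In FPKM, SRSF6-201 overlapped between the groups, at 43.9 and 47.1 against 45.5 and 45.8. SRSF6-202 was at 12.6 and 14.6 FPKM against 18.3 and 18.2. The distance between the groups, 5.45 percentage points for SRSF6-202, was larger than the distance between libraries of a group, and no library crossed over. In the limma fit the log2 fold change relative to the rest of the gene was 0.41 ± 0.35 (SE, adjusted p = 0.946) for SRSF6-202 and −0.42 ± 0.30 (SE, adjusted p = 0.946) for SRSF6-201. SRSF6-206, without a defined coding sequence, was at or below 0.565%, and no retained-intron transcript of SRSF6 is annotated.

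**Figure D4:**
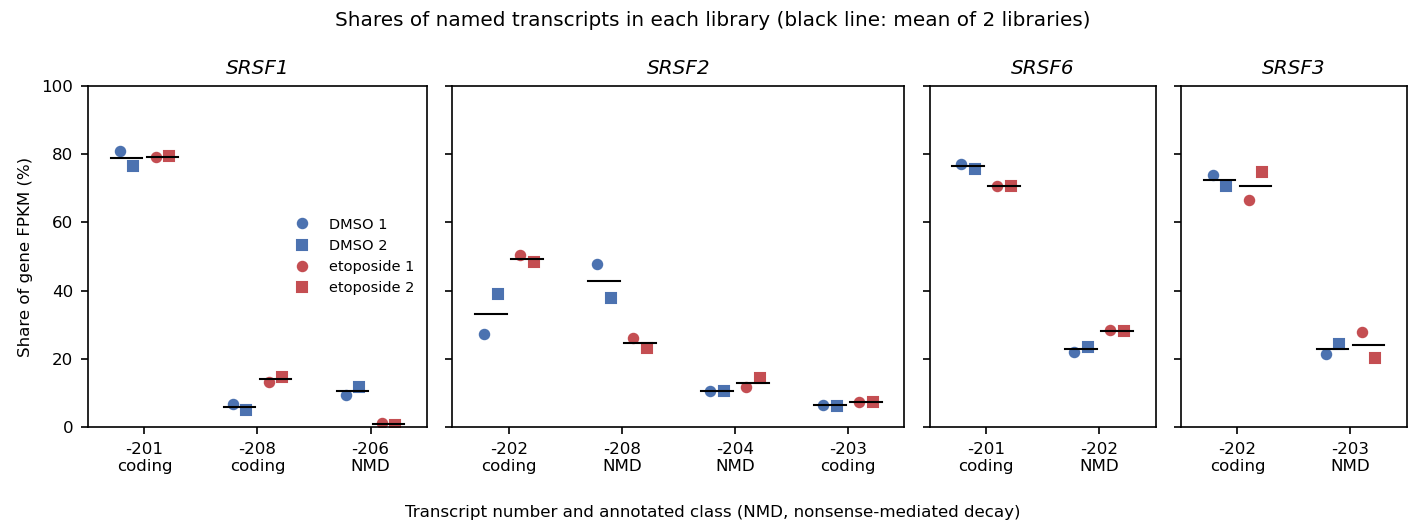
Share of the gene FPKM (y axis, percent) of named transcripts of SRSF1, SRSF2, SRSF6 and SRSF3 in DMSO (blue) and etoposide (red) libraries 1 (circles) and 2 (squares), with the mean of the 2 libraries as a black line. Groups lie apart for SRSF1-208, SRSF1-206, all 4 transcripts of SRSF2 and both of SRSF6, and overlap for SRSF1-201 and both transcripts of SRSF3. Of all 58935 transcripts tested relative to their gene, 34.6% had groups that did not overlap. Shares within a gene depend on each other.

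SRSF3, the smallest SR protein, which also couples splicing to mRNA export, had overlapping groups for every transcript named. SRSF3-203, with the poison exon, held 21.4% and 24.2% in the DMSO and 28.0% and 20.1% in the etoposide libraries. The main coding transcript SRSF3-202 held 74.0% and 70.6% against 66.7% and 74.7%. Etoposide 1 and etoposide 2 thus stood at the opposite ends of the range for both transcripts. The retained-intron transcript SRSF3-207 was between 3.54% and 3.84%.

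SRSF7, which carries a zinc knuckle beside its RNA recognition motif and takes part in mRNA export, had most of its FPKM in a transcript that retains intron 3. SRSF7-208 held 59.7% and 59.2% in DMSO 1 and 2 and 58.6% and 56.8% in etoposide 1 and 2, while the main coding transcript SRSF7-201 held only 12.9%, 14.7%, 11.8% and 13.9%. The log2 fold changes relative to the rest of the gene were −0.11 ± 0.32 (SE) for SRSF7-208 and −0.12 ± 0.38 for SRSF7-201, each with a limma adjusted p of at least 0.987. SRSF7-209, another coding transcript, held 8.56% and 7.97% in the DMSO libraries against 10.5% and 14.6% in the etoposide libraries, without overlap (log2 fold change 0.65 ± 0.40, limma adjusted p = 0.946). The retained-intron transcript SRSF7-211 was between 5.13% and 7.18%. SRSF7-208 is annotated as NMD although it is an intron that it keeps, so that the division into NMD and retained-intron classes follows the annotation and not the structure.

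SRSF5 and SRSF4 were dominated by differences between libraries of the same group. Of the coding transcripts of SRSF5, SRSF5-217 held 49.7%, 31.1%, 39.0% and 47.0% in DMSO 1, DMSO 2, etoposide 1 and etoposide 2, and SRSF5-205 held 11.5%, 28.2%, 16.3% and 20.7%. SRSF5-201 lay between 6.25% and 17.2%, and SRSF5-217 and SRSF5-201 encode the same number of bases (816). All coding transcripts of SRSF5 together were steadier, at 76.2% and 76.8% in the DMSO and 75.1% and 79.9% in the etoposide libraries. The only annotated NMD transcript, SRSF5-211, in which exon 6 begins earlier, inside intron 5, and holds an in-frame TAA in the added part, was small: it held 2.40% and 3.06% in the DMSO libraries against 1.53% and 0.586% in the etoposide libraries. Both etoposide libraries were lower, with a log2 fold change relative to the rest of the gene of −1.40 ± 0.56 (SE, limma adjusted p = 0.946), which was −0.79 without etoposide 2 and −2.01 without etoposide 1. The retained-intron transcript SRSF5-207 was at 4.07% and 5.92% against 6.37% and 5.93%, and SRSF5-215, without a defined coding sequence, was between 6.28% and 7.64%.

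In SRSF4, whose RS domain is the longest of the classical SR proteins, the main coding transcript SRSF4-201 held 79.4% and 54.5% in DMSO 1 and 2 and 48.4% and 83.9% in etoposide 1 and 2. The long retained-intron transcript SRSF4-207 (8128 bases) was the mirror of it, at 14.9%, 29.0%, 33.8% and 8.39%. DMSO 2 and etoposide 1 resembled each other more than either resembled the other library of its group. The coding transcript SRSF4-202 showed the same pairs, with 3.22% and 5.60% in DMSO 1 and etoposide 2 and 14% and 14.2% in DMSO 2 and etoposide 1. SRSF4-205, the NMD transcript, was steady at 1.63% to 2.20%. SRSF4 was the lowest of the 10 genes, and no difference between the groups was detectable at this spread.

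SRSF10, SRSF11 and TRA2B each had at least 16.8% of their FPKM in retained-intron transcripts in every library. SRSF10 is an SR protein that represses splicing when it is dephosphorylated. Its main coding transcript SRSF10-214 held 52.1% and 48.2% in the DMSO and 46.1% and 49.0% in the etoposide libraries. The retained-intron transcript SRSF10-213 held 16.4% and 20.2% against 22.7% and 20.9%, with both etoposide libraries just above. The NMD transcript SRSF10-210 was at 7.59% and 6.81% against 5.52% and 4.90%, and the second one, SRSF10-215, between 5.10% and 7.13%. SRSF10-212, without a defined coding sequence, was between 4.31% and 8.64%. None of these log2 fold changes relative to the rest of the gene was over 0.47 in size, and the limma adjusted p was at least 0.946 for each.

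In SRSF11 the main coding transcript SRSF11-202 held 36.5% and 36.6% in DMSO 1 and 2 and 30.8% and 26.4% in etoposide 1 and 2. The retained-intron transcript SRSF11-214 held 26.0% and 30.5% against 33.9% and 31.3%, so that in both etoposide libraries it held a larger share than the main coding transcript, and in both DMSO libraries a smaller one. The log2 fold change relative to the rest of the gene was −0.53 ± 0.36 (SE) for SRSF11-202 and 0.30 ± 0.37 for SRSF11-214 (limma adjusted p = 0.946 and 0.955). The other coding transcripts named, SRSF11-201 (6.67% to 11.0%), SRSF11-204 (4.49% to 7.72%) and SRSF11-203 (4.73% to 7.41%), overlapped between the groups. SRSF11-208, without a defined coding sequence, held 10.3% in DMSO 1 and 1.86% to 4.42% in the other libraries. The NMD transcript SRSF11-212 was at or below 1.07%. The models of SRSF11-201, SRSF11-204 and SRSF11-208 differ between the annotation of the files and the reference from which the classes were taken.

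TRA2B, which binds purine-rich exonic enhancers and has an RS domain at either end, had 51.9% and 48.3% of its FPKM in coding transcripts in the DMSO libraries against 44.8% and 40.5% in the etoposide libraries. The main coding transcript TRA2B-204 held 32.9% and 32.2% in the DMSO and 31.5% and 26.6% in the etoposide libraries. The shorter coding transcript TRA2B-201 held 13.3% and 12.2% against 9.17% and 9.66%. For both transcripts the etoposide libraries were below the DMSO libraries, with log2 fold changes relative to the rest of the gene of −0.24 ± 0.36 and −0.48 ± 0.36 (SE, limma adjusted p = 0.965 and 0.946). The retained-intron transcript TRA2B-214 held 29.2% and 26.3% against 30.1% and 30.7%, and TRA2B-213, which holds the poison exon and is classed as retained intron, held 8.78% and 13.2% against 8.60% and 14.6%. TRA2B-205, the NMD transcript with the same exon, was between 2.27% and 2.79%, and TRA2B-207, without a defined coding sequence, was at or below 0.255%.

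By class, the ratio of NMD to coding transcripts was lower in both etoposide libraries than in both DMSO libraries in SRSF1, SRSF2, SRSF5 and SRSF10, where this was so for 16.6% of the 3359 genes tested. It was higher in both in SRSF6 and TRA2B, where this was so for 17.5%, and the groups overlapped in the other 4. The log2 fold change was −1.40 ± 0.60 (SE) in SRSF5, −0.24 ± 0.44 in SRSF10, 0.42 ± 0.43 in SRSF6 and 0.33 ± 0.40 in TRA2B. The ratio of retained-intron to coding transcripts was higher in both etoposide libraries in SRSF10 (0.37 ± 0.38), SRSF11 (0.34 ± 0.38) and TRA2B (0.44 ± 0.41), where this was so for 21% of 5374 genes. It was lower in both in SRSF1 (−0.27 ± 0.28), where this was so for 13.5%. The directions differed among the 10 genes, and the median log2 fold change of the NMD ratio was −0.06 over the 10 and 0.02 over all genes tested, and that of the retained-intron ratio was 0.05 over the 9 genes that have it and 0.06 over all. No member, and 0 of all genes (0%), passed an adjusted p of 0.05 in limma for either ratio. Unadjusted p were under 0.05 in 89 genes (2.65%) with a higher and 86 (2.56%) with a lower NMD ratio, SRSF1 among the latter, and in 148 (2.75%) and 100 (1.86%) for the retained-intron ratio. When the classes were taken from the exon structure instead of the annotation, the sign turned for the NMD ratio of SRSF7 and SRSF10 and for the retained-intron ratio of SRSF1, SRSF7 and SRSF10. In that run the NMD class was replaced by transcripts with an added exon. No SRSF1 transcript has one, so the NMD ratio of SRSF1 was not in that run. SRSF2-208 and SRSF5-211 have none either and left the class.

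Of the 121 transcripts, 95 had a mean FPKM of at least 0.1 and were tested, and 4 were at 0 in every library. In 39 of the 95 the share relative to the rest of the gene did not overlap between the groups, 24 higher and 15 lower in the etoposide libraries, or 41.1% against 34.6% of the 58935 transcripts tested (18% higher and 16.6% lower). An unadjusted p was under 0.05 for 3 with a higher relative level (SRSF1-208, SRSF5-214 and SRSF11-213) and 3 with a lower one (SRSF1-206, SRSF2-208 and SRSF7-202), of which SRSF5-214, SRSF11-213 and SRSF7-202 are named here after their values were seen, and the smallest limma adjusted p was 0.430. In FPKM, 6 were higher and 4 lower at an unadjusted p under 0.05, and 0 passed the adjusted threshold. Over all transcripts 0 (0%) passed it for the relative level in limma, and 1497 (2.54%) and 1526 (2.59%) were higher and lower at an unadjusted p under 0.05. For FPKM 0 of 71340 transcripts passed the adjusted threshold, with 2104 (2.95%) higher and 2017 (2.83%) lower at an unadjusted p under 0.05. The precision was limited by the replicates: the log2 difference between the 2 libraries of a group had an SD of 1.36 (DMSO) and 1.40 (etoposide) over these relative levels, against 0.423 and 0.394 over gene levels.

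The depth given to poison exons offered another view of the same reads. It counts only transcripts that have an exon of exactly these ends. Reads on its bases that were given to other transcripts are left out. The depth of the flanking exons and of the main coding transcript sums all transcripts of the gene. The poison exon of TRA2B had a depth of 24.2% and 29.2% of the mean of its 2 flanking exons in DMSO 1 and 2 and of 30.1% and 30.0% in etoposide 1 and 2. That of SRSF6 was at 19.9% and 18.5% against 21.8% and 21.1%. Both etoposide libraries were above both DMSO libraries in these exons, and in an exact permutation test the two-sided p was 0.333, the smallest that 2 against 2 libraries allow. Set against the mean depth of the whole main coding transcript, the groups overlapped for the exon of TRA2B (32.6% and 45.0% against 43.1% and 43.3%).

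The depth of a poison exon and the FPKM share of the transcripts that hold it were different quantities. For SRSF6 that share was 22.4%, 24.0%, 29.0% and 28.4%, above the depth in each library, and for TRA2B it was 11.3%, 15.5%, 11.4% and 17.1%, below the depth and with overlapping groups. In SRSF3 the depth was 2.58%, 3.22%, 3.20% and 2.56% of that of the flanking exons, while the transcript that holds it was given 20.1% to 28.0% of the gene FPKM. The retained-intron transcript SRSF3-207 also runs over the bases of this exon, and its reads are not in that depth. Set against the mean depth of the whole main coding transcript, the exon was at 9.43%, 12.3%, 12.6% and 9.44%. The depth of the flanking exons (1894 to 2686 reads per base) was thus above that of the whole main transcript. Reads on exons that transcripts share were divided among them by the quantification, and the shares in FPKM are estimates of this kind. In SRSF4 the first added exon of SRSF4-205 was at 16.3%, 16.4%, 34.8% and 16.3% of its flanks, with etoposide 1 apart from the other 3 libraries. The added exon of SRSF7-207 was at 4.85% and 3.98% against 6.40% and 6.53%. The other added exons with a stop, in SRSF3-204, SRSF7-203, SRSF7-204, SRSF11-212 and SRSF11-213, were at or below 1.55% in every library. The bases of the SRSF7-203 and SRSF7-204 exons also lie within the exon of SRSF7-208 that retains intron 3. Reads given to SRSF7-208 are not in these values, so these bases are not bare of reads. The extension of exon 1 in SRSF1-206 and the introns behind the stop of SRSF2 have no exon line of their own, so their depth could not be read in the same way.

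**Figure D5:**
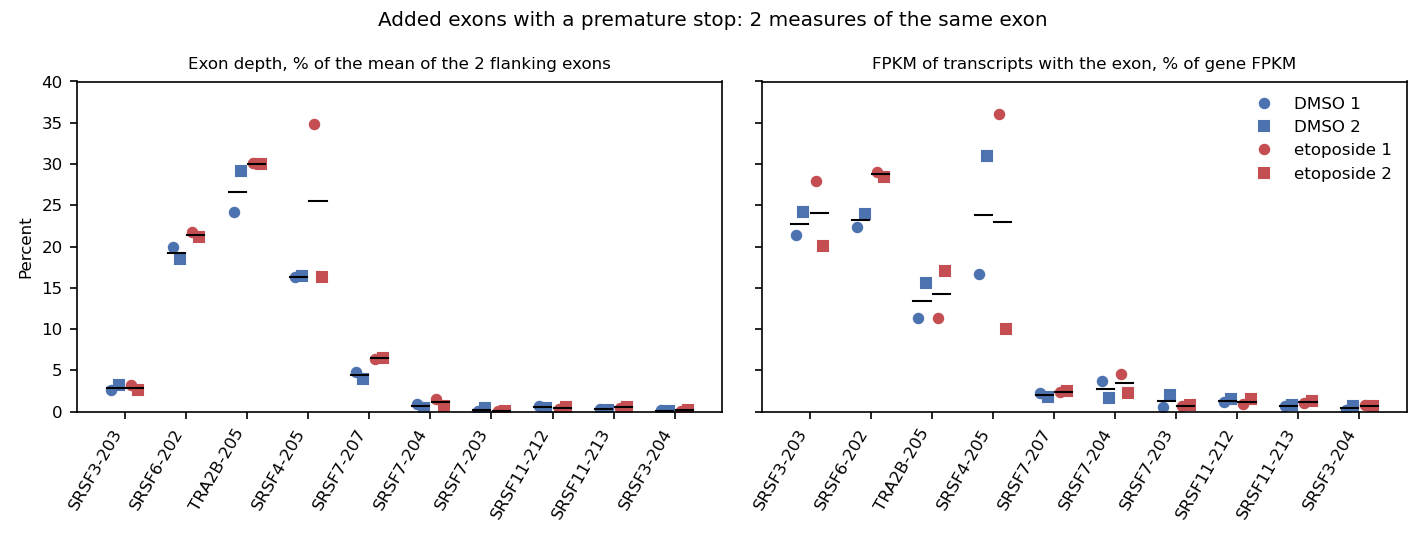
Depth of added exons with a premature stop as a percentage of the mean of the 2 flanking exons (left) and the FPKM of the transcripts that hold the exon as a percentage of the gene FPKM (right), for DMSO (blue) and etoposide (red) libraries 1 (circles) and 2 (squares), with group means as black lines. The exon depth leaves out reads given to other transcripts over the same bases. The SRSF3-203 exon is at 2.56% to 3.22% on the left and at 20.1% to 28.0% on the right, whereas the SRSF6-202 exon is at 18.5% to 21.8% on the left and at 22.4% to 29.0% on the right.

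Among genes that act with SR proteins, 0 of the 79 in 6 lists passed an adjusted p of 0.05 in limma, and 4, all with a higher level in etoposide treated cells, had an unadjusted p under 0.05, against 7.06% of all genes higher and 4.85% lower. Among the 7 genes of SR kinases and their import receptor, 6 had a positive log2 fold change, as 56.2% of all genes tested did, with a median of 0.12 against 0.04 over all, and none had an unadjusted p under 0.05. SRPK1, which phosphorylates RS domains in the cytoplasm, was at 12.8 and 14.6 FPKM in the DMSO and 16.8 and 15.7 in the etoposide libraries (log2 fold change 0.24 ± 0.10, limma adjusted p = 0.419). CLK1, its counterpart in the nucleus, was at 11.8 and 11.2 against 12.9 and 12.6 (0.15 ± 0.09, limma adjusted p = 0.497). Both genes, named for their smallest p, were higher in both etoposide libraries. In the whole list of 7 genes 3 were higher and 0 lower in both, where 28.9% of all genes were higher in both.

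Of the 26 hnRNP genes, whose products often oppose SR proteins at silencer sequences, 13 had positive and 13 negative log2 fold changes, with a median of −0.002. HNRNPU was at 76.7 and 95.2 FPKM against 111 and 123 (0.45 ± 0.12, limma adjusted p = 0.337), and HNRNPH3 at 99.7 and 98.8 against 114 and 112 (0.19 ± 0.07, limma adjusted p = 0.392). These were the only 2 of the list with an unadjusted p under 0.05. They were named for their smallest p, and both were higher in both etoposide libraries. In the whole list 6 genes were higher and 5 lower in both etoposide libraries. Of all genes, 28.9% were higher in both, and 47.9% had groups that did not overlap in either direction. The 13 NMD factors had 8 positive and 5 negative log2 fold changes (median 0.03). UPF3B, which links the exon junction complex to the decay machinery, was at 21.8 and 21.8 FPKM against 25.6 and 23.3, and SMG1, the kinase of UPF1, at 3.55 and 6.68 against 7.07 and 7.10.

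The 8 genes of the exon junction complex and its partners had 5 positive and 3 negative values (median 0.02), with PNN at 44.8 and 48.1 FPKM against 55.4 and 53.0 (0.22 ± 0.08, limma adjusted p = 0.390) and MAGOHB at 6.49 and 5.34 against 7.60 and 6.35. The 18 genes of U1 and U2 snRNP had 7 positive and 11 negative values (median −0.01), with SF3B1 at 31.7 and 40.1 against 41.9 and 41.4 FPKM and SF3B3 at 17.8 and 19.1 against 20.4 and 20.5. Of the 7 other SR genes 5 were positive and 2 negative (median 0.03). SRSF12, a low relative of SRSF10, was at 1.23 and 1.48 FPKM against 1.83 and 1.93 (0.45 ± 0.15, limma adjusted p = 0.383), and SREK1 at 11.0 and 15.3 against 16.1 and 16.0.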

How the data were processed

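RNA of 4 OVCAR3 libraries (2 DMSO treated, 2 etoposide treated, labelled as biological replicates) was made into stranded mRNA libraries and sequenced from both ends, 100 bases each. The authors aligned reads to GRCh38 with HISAT2, used SAMtools, and ran StringTie 2.1.7 on Ensembl 104 transcripts only, without a strand option. The deposited values are a coverage (mean depth), an FPKM and a TPM per transcript and a coverage per exon. Counts were not used here, so DESeq2, named by the authors, was not run. The mapped bases behind the FPKM equal 64500000 and 66500000 (DMSO) and 47700000 and 58500000 (etoposide) read pairs.

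FPKM were summed per gene, and shares were taken within genes. Transcript classes came from GENCODE 44 by transcript ID (234583 matched, 2270 not). Of the 121 transcripts of the 10 genes, 115 had the same exons in both annotations, 4 differed and 2 were not matched. Sequences were read from GRCh38. limma 3.58.1 (R 4.3.3, trend and robust moderation) was run on log2(FPKM + 0.1) of genes and transcripts, and on log2 ratios with 0.1 added to both terms, of a transcript to the rest of its gene and of a noncoding class to the coding transcripts. Features needed a mean FPKM of at least 0.1, and for ratios the gene one of at least 1. Fold changes on this scale understate those of low transcripts. P-values were adjusted by Benjamini-Hochberg over each whole table, with a threshold of 0.05. Exon depth was compared by an exact two-sided permutation test. The fits were tested on simulated data. Alternatives were other pseudocounts, filters and scalings, a correction for length and GC content (lowess, span 0.3), no trend, the replicate number as a block, classes by exon structure, and each library left out. Tables were made with Python 3.11.15 and pandas 2.3.3.

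Named were the main coding transcript, the highest transcript of each other class and any with a mean share of at least 5%. Of 6 context lists, the 2 genes with the smallest p were named. The genes, lists and tests were chosen with earlier results of these data known. The labels give no culture dates, so p-values measure the spread between these libraries. Proteins of these transcripts were not analysed here.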

Additional observations from a re-analysis of the deposited data

How the results depend on the processing

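The numbers of transcripts, of relative transcript levels and of ratios within genes past an adjusted p of 0.05 were 0 under every alternative run: pseudocounts of 1 and 0.01, a mean FPKM of at least 1 or no filter, TPM, upper-quartile scaling, the length and GC correction, no trend, the replicate number as a block and each library left out. For gene FPKM the number was 0 except with the length and GC correction (6, all lower) and with a library left out, where it ranged from 5 (without DMSO 1) to 1934 (without DMSO 2), with 98 without etoposide 1 and 102 without etoposide 2. The lone library of a group is then assumed to vary like those of the other group. The cause was not tested, and none of the 10 genes, their named transcripts or their ratios passed the threshold in any alternative. DMSO and etoposide libraries share only a replicate number (correlation of their deviations over genes 0.0133), and with the replicate block 0 genes, transcripts or ratios were called.

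Directions changed for 3 genes on the TPM scale (SRSF3 0.062, SRSF1 0.028 and TRA2B 0.034) and for SRSF6-206 with a pseudocount of 1 (−0.021). With the length and GC correction the log2 fold changes of SRSF5 (−0.0033), SRSF4 (−0.0017), SRSF6 (−0.0055) and SRSF10 (−0.053) turned for gene FPKM, and those of SRSF1-201 (−0.11), SRSF5-205 (0.00060), SRSF1-202 (0.088) and SRSF4-205 (0.024) for the relative level. With classes by exon structure the NMD ratios of SRSF7 (0.068) and SRSF10 (0.29) and the retained-intron ratios of SRSF7 (−0.13), SRSF1 (0.68) and SRSF10 (−0.11) turned. The NMD ratio of SRSF1 was not in that run. With all exons of the main transcript as the base, the log2 difference of the SRSF3-203 exon was 0.016. With 1 library left out, 42 of 92 values changed direction for at least 1 library. For gene FPKM these were SRSF1 (−0.14 to 0.065), SRSF2 (−0.19 to 0.0036), SRSF3 (−0.036 to 0.024), SRSF4 (−0.23 to 0.28), SRSF5 (−0.023 to 0.082) and TRA2B (−0.075 to 0.0077). For the level relative to the rest of the gene they were SRSF1-201 (−0.14 to 0.22), SRSF1-202 (−0.30 to 0.076), SRSF1-203 (−0.69 to 0.75), SRSF10-212 (−0.084 to 0.78), SRSF11-203 (−0.053 to 0.60), SRSF11-204 (−0.32 to 0.46), SRSF11-208 (−1.88 to 0.49), SRSF11-212 (−0.72 to 0.29), SRSF2-206 (−0.21 to 0.37), SRSF3-202 (−0.38 to 0.17), SRSF3-203 (−0.23 to 0.40), SRSF3-207 (−0.11 to 0.0084), SRSF4-201 (−1.18 to 1.26), SRSF4-202 (−0.68 to 1.43), SRSF4-205 (−0.24 to 0.22), SRSF4-207 (−1.50 to 0.91), SRSF5-201 (−0.21 to 1.19), SRSF5-205 (−0.80 to 0.78), SRSF5-215 (−0.018 to 0.26), SRSF5-217 (−0.39 to 0.74), SRSF6-206 (−0.046 to 0.50), SRSF7-201 (−0.25 to 0.015), TRA2B-205 (−0.019 to 0.21) and TRA2B-213 (−0.36 to 0.50). For the NMD ratio they were SRSF3 (−0.20 to 0.42), SRSF4 (−0.49 to 0.47) and SRSF7 (−0.35 to 0.13), for the retained-intron ratio SRSF2 (−0.64 to 0.15), SRSF3 (−0.010 to 0.048), SRSF4 (−1.49 to 0.96), SRSF5 (−0.14 to 0.25) and SRSF7 (−0.083 to 0.49), and for the depth of added exons SRSF3-203 (−0.17 to 0.15), SRSF3-204 (−0.65 to 2.72), SRSF4-205 (−0.0069 to 1.09) and SRSF7-203 (−1.63 to 0.89). The relative levels of SRSF1-206, SRSF1-208, SRSF2-208, SRSF2-202 and SRSF6-202 kept their direction in every alternative run. Since the groups of these transcripts did not overlap, leaving out 1 library could not turn the direction, so those runs are no test of it. With 1 library left out, the log2 fold change ranged from 0.61 to 1.38 for SRSF2-202, −1.49 to −0.90 for SRSF2-208, −4.06 to −3.06 for SRSF1-206 and −2.01 to −0.79 for SRSF5-211, and that of the NMD ratio from −1.27 to −0.62 for SRSF2 and −2.05 to −0.75 for SRSF5. The depth behind small transcripts limits them: SRSF1-206 was given about 33.7 read pairs in etoposide 2. Its exons behind exon 1 lie within those of SRSF1-201, so this number is an estimate from the division of shared reads.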
